A study of Drosophila melanogaster with 2 samples.

Results

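Divergent promoter peaks of the CG14711-eGFP protein are described here: 1274 of the 5654 peaks of the reproducible (IDR) list (22.5%, 95% interval 21.5 to 23.6) had their summit within 500 bp of protein-coding transcription start sites (TSSs) on both strands. They were chosen by position alone, from the annotated TSSs of all transcripts on the main chromosome arms, and neither signal nor rank entered the rule beyond the authors' own selection of the list. A further 2222 peaks had protein-coding TSSs of a single strand within 500 bp and are called one-strand peaks. The remaining 2158 peaks had none. The list is the authors' final one, selected with the irreproducible discovery rate (IDR), which scores how well ranked peaks recur between replicates. The name reproducible refers to the list, and a single peak of it need not recur in both replicates. No summit lay within 100 bp in the replicate 3 list for 5.64% of its peaks, and in the replicate 4 list for 2.14%. Divergent peaks thus made up 36.4% of the 3496 peaks near a protein-coding TSS (95% interval 34.9 to 38.1).

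A divergent promoter serves a pair of genes that start close together and are transcribed away from each other. In Drosophila such pairs are common in the compact genome, and many of their genes are housekeeping genes that are active in most tissues. Insulator and architectural proteins, including BEAF-32, bind many of these shared promoters, and CG14711 belongs to the ZAD zinc finger family, from which several such proteins come.

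The data are chromatin immunoprecipitation with sequencing (ChIP-seq) from whole adult females of unknown age, all from a line that carries a transgene for CG14711 with enhanced GFP at its C terminus, immunoprecipitated with an antibody to GFP. The study has 1 group of 2 samples, biological replicates 3 and 4, and no second condition, wild type or untagged group was analysed here. Whole animals mix all tissues, so a peak does not say in which cells the protein was bound. The transgene adds copies of the tagged gene, and the labels do not give its promoter or the extent of its sequence.

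No test over samples can be made with 1 group of 2 samples, and none over peaks was built, since neighbouring peaks and genes are not independent. Shares carry Wilson 95% intervals and medians carry order-statistic 95% intervals, which cover the counting of peaks or genes and not variation between preparations. The peak lists hold no read counts, so sequencing depth is unknown. The signal value of a peak is the authors' own, on a scale that differs between lists, and rank 1 is the highest signal of a list.

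The sequences between the TSSs of 9 divergent pairs are shown because their peaks lie between the TSSs of the pair and are among the strongest of their kind. The first 5 are among the strongest with a spacing of 200 to 299 bp. In that range Zaf1/CG14711 (signal 6809) and sti/tral (5656) are stronger than all 5 and are not printed. CG13901/CG13887 (4074) and CG12341/CG7222 (3759) are stronger than some of the 5 and are not printed either. The next 2 are among the strongest with a spacing of up to 100 bp, and the last 2 are among the strongest that hold the word CAACCCTG. The peak at mRpS16/cg (spacing 97 bp, signal 4239), which also has the word near its summit, is stronger than these last 4 and is not printed. Selection was limited to pairs in which no annotated exon of any gene lies between the TSSs. Each is the plus strand of dm6, 5′ to 3′, from the base after the minus-strand TSS to the base before the plus-strand TSS, taken from the RefSeq copy of the assembly. Capitals mark CAACCC and CGATA on either strand (GGGTTG and TATCG on the other strand).
CG15012/Fdx2, chr3L:4292247-4292481: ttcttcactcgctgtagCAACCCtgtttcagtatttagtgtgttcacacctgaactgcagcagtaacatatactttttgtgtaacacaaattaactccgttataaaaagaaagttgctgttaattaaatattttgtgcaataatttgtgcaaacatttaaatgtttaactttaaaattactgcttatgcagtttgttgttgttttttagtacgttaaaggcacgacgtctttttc
Phf5a/CG31638, chr2L:6490844-6491060: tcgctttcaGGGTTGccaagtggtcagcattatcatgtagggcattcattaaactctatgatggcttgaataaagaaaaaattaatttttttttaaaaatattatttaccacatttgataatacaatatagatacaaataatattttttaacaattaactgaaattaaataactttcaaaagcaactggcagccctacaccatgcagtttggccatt
CG9117/CG31643, chr2L:6037903-6038116: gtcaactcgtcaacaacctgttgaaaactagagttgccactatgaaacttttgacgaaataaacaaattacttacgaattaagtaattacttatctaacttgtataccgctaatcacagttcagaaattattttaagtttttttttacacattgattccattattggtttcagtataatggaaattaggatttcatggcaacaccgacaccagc
CG4743/Idh3g, chr3R:25680551-25680844: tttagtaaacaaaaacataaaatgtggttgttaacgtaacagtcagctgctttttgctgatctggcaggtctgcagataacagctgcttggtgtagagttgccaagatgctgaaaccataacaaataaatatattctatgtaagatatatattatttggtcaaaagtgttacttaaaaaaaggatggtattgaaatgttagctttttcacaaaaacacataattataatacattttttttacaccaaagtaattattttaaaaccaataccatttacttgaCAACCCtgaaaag
CG13390/CG17294, chr2L:8376798-8377034: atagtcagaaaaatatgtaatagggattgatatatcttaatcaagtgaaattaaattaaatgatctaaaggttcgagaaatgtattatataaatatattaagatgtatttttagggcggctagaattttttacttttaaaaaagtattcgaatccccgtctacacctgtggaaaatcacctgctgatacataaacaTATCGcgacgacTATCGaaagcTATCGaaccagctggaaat
crq/shv, chr2L:453025-453107: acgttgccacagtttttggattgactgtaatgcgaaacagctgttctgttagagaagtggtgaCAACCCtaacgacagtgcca
puf/ash2, chr3R:24650044-24650124: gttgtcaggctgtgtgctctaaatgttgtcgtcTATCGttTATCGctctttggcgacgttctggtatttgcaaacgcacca
mrva/CG42307, chr3L:7328843-7329131: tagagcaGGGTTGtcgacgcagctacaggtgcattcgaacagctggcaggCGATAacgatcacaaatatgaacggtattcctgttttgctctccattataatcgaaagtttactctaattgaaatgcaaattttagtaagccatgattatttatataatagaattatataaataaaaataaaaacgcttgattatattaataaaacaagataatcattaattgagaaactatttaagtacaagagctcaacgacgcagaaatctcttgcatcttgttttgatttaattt
CG7810/CG7806, chr2L:8311196-8311398: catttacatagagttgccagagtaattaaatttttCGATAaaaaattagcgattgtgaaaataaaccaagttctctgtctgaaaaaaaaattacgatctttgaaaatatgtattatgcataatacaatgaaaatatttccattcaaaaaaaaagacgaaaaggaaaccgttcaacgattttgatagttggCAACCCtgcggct

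The first of these separates CG15012 and Fdx2, which encodes a mitochondrial ferredoxin, and its summit lies at base 61 of the 235 printed. The second separates CG31638 and Phf5a, a component of the SF3b splicing complex, with the summit at base 92 of 217. In the second, the capitals begin at base 10, close to the start of Phf5a. In CG4743/Idh3g they begin at base 282 of 294, close to the start of Idh3g, which encodes a subunit of isocitrate dehydrogenase, while the summit lies at base 182. The interval of CG9117/CG31643 holds neither word, and that of CG13390/CG17294 holds CGATA 3 times and CAACCC not at all. The interval of puf, a ubiquitin protease gene, and ash2, a gene of a histone methyltransferase complex, holds 2 CGATA matches. A match says only that these letters are present.

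The label of the set was checked against the geometry of the genes. For each peak the nearest TSS of each strand was taken as its pair. In 1244 of the 1274 peaks (97.6%, 95% interval 96.7 to 98.3) the pair was head-to-head, with the minus-strand TSS on the lower coordinate. In the other 30 the 5′ ends overlapped, by a median of 132 bp (2 to 326 bp), so each gene is transcribed across the start of its partner. The largest overlaps were those of dnd/CG6678, at 326 bp, CG12182/CG16985, at 282 bp, and the glycolytic gene Pgk with Bacc, at 268 bp. In 117 head-to-head members (9.41%) the annotated spans of both genes overlap. Both TSSs were the outermost of their genes in 84.7% of members, and in 5 members neither was. Only 2 protein-coding genes had a TSS within 500 bp in 1211 members, 3 had one in 57 and more than 3 in 6. The exception with the most genes was a mod(mdg4) locus, whose trans-spliced units are annotated as separate genes. A noncoding TSS also lay within 500 bp in 17 members (1.33%).

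The 1274 members covered 1169 gene pairs and 2327 genes. From the annotation alone, 2521 head-to-head protein-coding pairs had closest TSSs no more than 1000 bp apart. Of these pairs, 1179 (46.8%, 95% interval 44.8 to 48.7) had a summit of the reproducible list within 500 bp of both TSSs. Among the 8804 protein-coding genes with no opposite protein-coding TSS within 1000 bp, 1553 (17.6%, 95% interval 16.9 to 18.5) had a summit within 500 bp. Over all 13945 protein-coding genes the share with such a summit was 30.7%. A pair has 2 starts and so more chances of a nearby summit, but it also had to satisfy both distances. With the summit required within 150 bp of either TSS of a pair, or of a TSS of the single gene, the shares were 47.1% of pairs (95% interval 45.2 to 49.1) and 11.4% of single genes (95% interval 10.7 to 12.0).

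The share of pairs with a peak varied with the distance between the starts. It was 51.0% of 751 pairs at a spacing of 0 to 199 bp (95% interval 47.4 to 54.6), 67.1% of 905 pairs at 200 to 399 bp (63.9 to 70.1) and 45.3% of 258 pairs at 400 to 500 bp (39.4 to 51.4). Between 501 and 1000 bp it was 11.9% of 607 pairs. The room that satisfies both distances shrinks base by base as the spacing grows, so a lower share at wider spacing can follow in part from the rule. In bins of 25 bp the share changed most at 200 bp. It was 37.3% (28 of 75 pairs, 95% interval 27.3 to 48.6) at 175 to 199 bp, and 79.2% (61 of 77 pairs, 68.9 to 86.8) at 200 to 224 bp. These intervals do not overlap, but this step was picked because it was the largest between neighbouring bins. From 225 to 349 bp the share lay between 64.9% and 72.6%. In the bins from 350 to 499 bp it lay between 36.8% and 61.2%, without a steady fall from bin to bin.

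**Figure D1:**
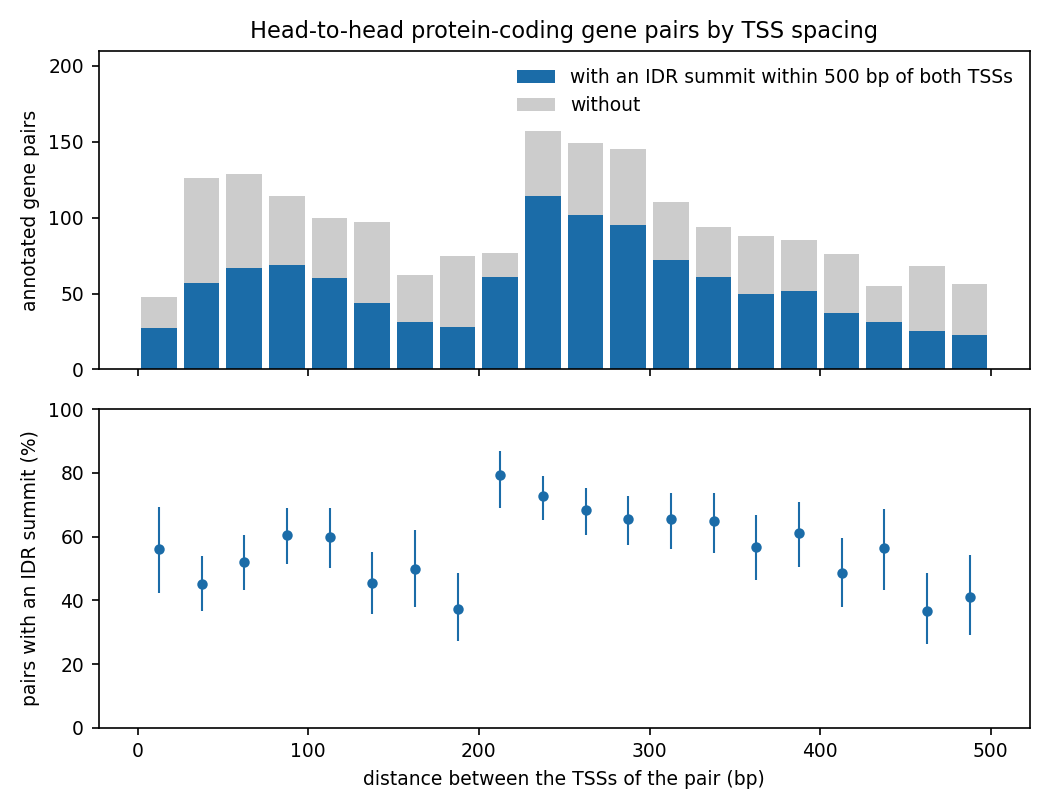
Annotated head-to-head protein-coding gene pairs by TSS spacing in 25-bp bins. The upper panel counts pairs with (blue) and without (grey) a summit of the reproducible (IDR) list within 500 bp of both TSSs; the lower panel gives the percentage with one and its Wilson 95% interval, lowest near spacings of 175 to 199 bp (37.3%) and 450 to 474 bp (36.8%) and highest at 200 to 224 bp (79.2%).

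Members had a median spacing of 276 bp (95% interval 266 to 284, interquartile range 182 to 375, range 1 to 864). For all annotated pairs it was 297 bp, but these use the closest TSSs, count each gene pair once and reach 1000 bp. With the closest TSSs the median of members was 263 bp. The 500 bp rule leaves less room for members at wide spacing, and its part in the difference was not tested. The narrowest starts are adjacent bases. Atg6/Pisd, of the autophagy gene Atg6 and a phosphatidylserine decarboxylase gene, has a spacing of 1 bp and holds 2 members with signals of 942 and 322. CG4730/CG5039 also has a spacing of 1 bp, and its signal was 323. The widest member pairs were mRNA-cap/CG32599 (864 bp, signal 234), of the mRNA capping enzyme, Tsp42Eq/Tsp42Er (830 bp, signal 276), of tetraspanin genes, and Jheh3/CG43069 (784 bp, signal 198), of a juvenile hormone epoxide hydrolase. The last 2 of these had no summit within 100 bp in the replicate 3 list.

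The summit lay between the TSSs in 1010 of the 1244 head-to-head members (81.2%, 95% interval 78.9 to 83.3). Of the positions the rule admits at these pairs, an average of 42.9% lies between the TSSs. At a spacing of 0 to 199 bp the summit lay between the TSSs in 49.6% of 339 members, where 11.6% of admitted positions do. At 200 to 349 bp it did so in 91.7% of 530 members, where 38.0% of positions do, and at 350 bp and over in 94.9% of 375 members, where 78.3% do. Above 500 bp the rule itself puts every summit between the TSSs. The share rose most at the narrow end: 14.5% of 62 members at 0 to 50 bp, 46.9% of 113 at 51 to 100 bp and 94.0% of 168 at 201 to 250 bp.

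Within the interval, summits of the 200 to 349 bp class crowded to the middle. The middle 20% of the interval held 43.6% of 486 summits there (95% interval 39.3 to 48.1), against 23.8% of 168 summits at 0 to 199 bp (18.0 to 30.8) and 18.8% of 356 summits at 350 bp and over (15.1 to 23.2). In steps of 10% from the minus-strand TSS, the pair of steps on either side of the middle held 21.6% and 22.0% of summits in the 200 to 349 bp class. In the widest class these 2 steps held 10.4% and 8.43%, less than the next step out on each side, with 13.8% and 16.3%. The median distance to the nearer TSS was 30 bp, 100 bp and 126.5 bp in the 3 classes, from narrow to wide, and that to the farther TSS was 80.5, 168.5 and 320 bp. Neither strand was favoured by much: 652 summits lay nearer the plus-strand TSS, 590 nearer the minus-strand TSS and 2 in the exact middle.

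**Figure D2:**
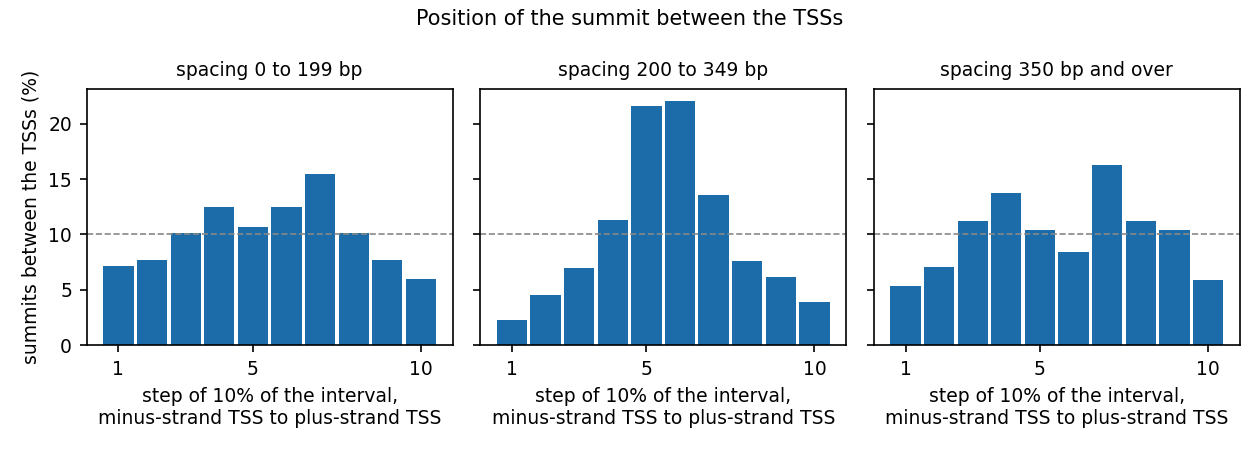
Position of the summit in the interval between the TSSs, in 10% steps from the minus-strand to the plus-strand TSS, as a percentage of head-to-head members with the summit between the TSSs, in 3 classes of spacing (168, 486 and 356 summits). The dashed line marks 10%; in the 200 to 349 bp class the 2 middle steps hold 21.6% and 22.0%.

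The 234 head-to-head members with the summit outside the interval lay just inside a gene. Of these, 122 were downstream of the plus-strand TSS and 112 downstream of the minus-strand TSS, at a median of 39.5 bp from the nearer start. The summit fell in the annotated 5′ UTR of that gene in 210 of them (89.7%), in an intron in 18 and in coding sequence in 6. Their pairs were narrow, with a median spacing of 104.5 bp, against 295 bp where the summit lay between the TSSs. Their median signal was 268 (95% interval 242 to 299), against 339 (315 to 364) for summits between the TSSs. Where the 5′ ends overlapped, the summit lay within the overlap in 11 of 30 members, and the median signal was 224 (95% interval 180 to 404).

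Replicate summits were compared where each lay within 100 bp of the summit in the reproducible list. This held for 1169 members and 2035 one-strand peaks, and the matching itself keeps such summits close. Replicate summits lay a median of 26 bp apart at members (95% interval 24 to 28), against 28 bp (27 to 30) at one-strand peaks. Among the 1142 head-to-head members with a summit in both replicate lists, the summit lay between the TSSs in 78.5% by replicate 3 and in 81.2% by replicate 4, and in 74.6% by both. Both replicates put it on the same side of the middle in 930 of the 1142 (81.4%, 95% interval 79.1 to 83.6).

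Divergent peaks had higher signal than one-strand peaks. Their median signal was 317 (95% interval 303 to 340, interquartile range 206 to 623), against 247 (240 to 256, interquartile range 183 to 445) for one-strand peaks, a ratio of 1.28. The middle ranges overlap widely. The median over all peaks of the list was 257. At matched distance to the nearest TSS the medians were 267 against 208 at 0 to 50 bp, 339 against 224 at 51 to 100 bp and 372 against 270 at 101 to 150 bp, with intervals that do not overlap in these 3 bins. At 151 to 500 bp they were 316 (95% interval 277 to 364) against 288 (273 to 301), and the intervals overlap. One-strand peaks with a noncoding TSS on the opposite strand, 108 in all, had a median of 249, close to the other one-strand peaks at 247 and with an interval (218 to 308) that takes in the lower end of the members' interval.

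Members filled more of the top of the list than their share of it. They held 44 of the 100 strongest peaks (95% interval 34.7 to 53.8), 39.2% of the 500 strongest and 33.5% of the 1000 strongest, against 22.5% of the whole list. One-strand peaks held 40 of the 100 strongest, 38.4% of the 500 and 38.3% of the 1000. The reproducible list consists of the pooled peaks of highest signal, 18.8% of the 30000. Of the 2282 pooled peaks that meet the divergent rule, 55.8% (95% interval 53.8 to 57.9) were in it, against 26.5% of 8373 one-strand pooled peaks (25.6 to 27.5). Since entry follows pooled signal, these shares restate the difference in signal and are no separate observation.

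Both replicates ranked members higher than one-strand peaks. In the replicate 3 list the median rank was 2207.5 for members (95% interval 2027 to 2418), against 2779 (2670 to 2921) for one-strand peaks. In the replicate 4 list it was 2072 (95% interval 1936 to 2227), against 2971.5 (2865 to 3092). A further comparison asked which peaks were among the best 5654 of each replicate. In replicate 3 this held for 78.2% of members (95% interval 75.8 to 80.4) and 77.0% of one-strand peaks (75.3 to 78.7), a difference within these intervals. In replicate 4 it held for 91.4% of members (89.7 to 92.8) and 83.7% of one-strand peaks (82.1 to 85.2). In both replicates it held for 913 members, or 71.7% (69.1 to 74.1), against 63.6% of one-strand peaks (61.6 to 65.6) and 64.9% of all peaks of the list.

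Ranks in replicate 4 were somewhat better than in replicate 3 over the whole list, members included. The rank in replicate 3 was a median of 1.15 times that in replicate 4 for members (95% interval 1.10 to 1.19), against 1.00 times (0.964 to 1.03) for one-strand peaks, 1.11 times (1.08 to 1.14) for peaks with no protein-coding TSS nearby and 1.08 times over all peaks of the list. Replicate 4 gave the better rank in 59.7% of 1169 members and in 49.9% of 2035 one-strand peaks, with 54.7% over all peaks of the list. No summit lay within 100 bp in the replicate 3 list for 6.28% of members and in the replicate 4 list for 2.12%, against 6.08% and 2.61% of one-strand peaks, with 5.64% and 2.14% over all peaks of the list. What goes with the difference between the replicates was not tested.

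**Figure D3:**
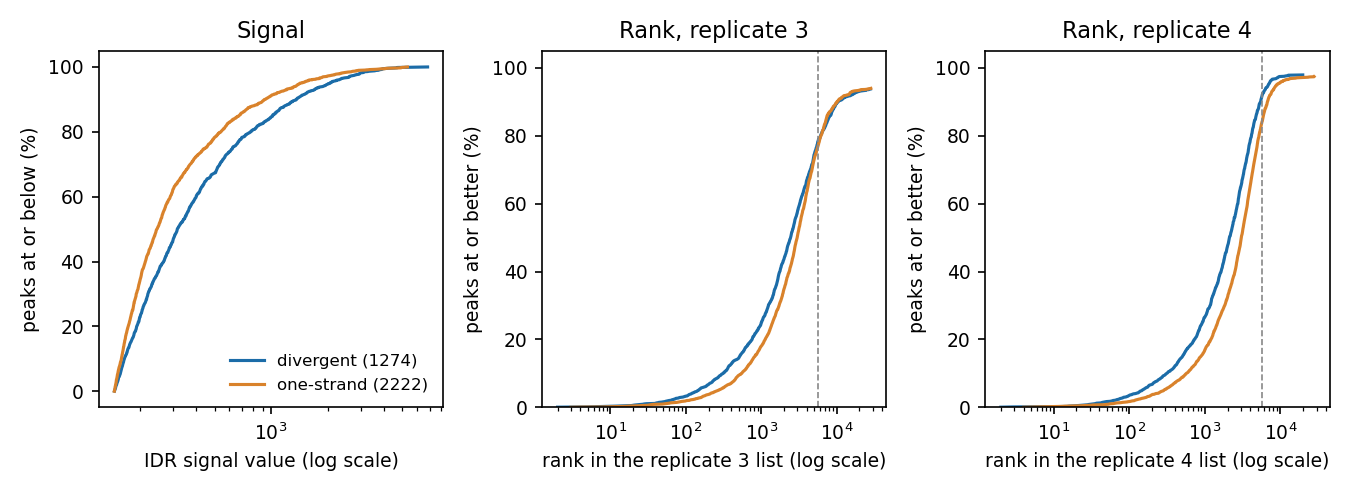
Cumulative percentage of divergent (blue, 1274) and one-strand (orange, 2222) peaks by signal in the reproducible (IDR) list and by rank in each replicate list, on log axes. Ranks count peaks with a summit within 100 bp in that list, and the dashed lines mark rank 5654, where the curves lie at 78.2% and 77.0% in replicate 3 and at 91.4% and 83.7% in replicate 4.

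Signal also varied among members with spacing. The median was 287 (95% interval 264 to 323) at 0 to 199 bp, 373 (338 to 409) at 200 to 349 bp and 303 (279 to 332) at 350 bp and over. The median rank in the same 3 classes was 2342, 1937 and 2495 in replicate 3 and 2419, 1797 and 2159 in replicate 4. The 200 to 349 bp class thus had the best median rank in both replicates, although its interval overlapped those of the other classes, except that of 0 to 199 bp in replicate 4. The share among the best peaks of both replicates was 74.3% at 0 to 199 bp, 75.7% at 200 to 349 bp and 64.8% at 350 bp and over (95% interval 59.8 to 69.5).

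The strongest member lay between annotated starts of the tagged gene itself and of Zaf1. The peak at Zaf1/CG14711 had the second highest signal of the whole list, at 6809. Its signal was 2987 in the replicate 3 list and 3835 in the replicate 4 list, at rank 2 in both. The summit, at position 11623208 of 3R, lay 131 bp upstream of CG14711 (FBgn0037922, TSS at 11623339, plus strand) and 111 bp upstream of the Zaf1 TSS at 11623097. That TSS is not the outermost of Zaf1, whose first start lies at a higher coordinate than the summit. The summit is thus inside the annotated span of Zaf1. The pair is 242 bp apart, and both replicate summits lay within 8 bp of each other. The line carries added copies of CG14711, and their part in this signal was not tested.

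The peak at sti/tral, of the citron kinase sticky and the RNA-binding protein trailer hitch, had a signal of 5656, with 2113 in replicate 3 (rank 5) and 3546 in replicate 4 (rank 3). CG15012/Fdx2 reached 4705, with ranks of 12 in replicate 3 and 11 in replicate 4. Phf5a/CG31638 reached 4701, with ranks of 10 and 15. The peak at Rad60/EloA, of a SUMO-like DNA repair gene and the elongation factor gene Elongin A, reached 4531, with ranks of 7 and 19. Its summit lay 42 bp inside Rad60, outside an interval of 86 bp.

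Mitochondrial ribosomal genes appeared among the strongest members at mRpS16/cg (4239), shared with the zinc finger gene combgap, and at Art3/mRpS10 (3271), shared with an arginine methyltransferase gene. Cell cycle and chromatin genes appeared at CG7523/Mps1 (3915), with a spindle checkpoint kinase, and at ball/His2Av (3305), with a histone kinase and the H2A variant. Immune genes were imd/Dp1 (3911), with an adaptor of the Imd pathway, and crq/shv (3124), with the scavenger receptor croquemort. Others were Rox8/CG5986 (3896), of an RNA-binding protein, CG4743/Idh3g (3778), CG17249/Bro (3730), of the CBF-beta homologue Brother, and CG5611/Mtl (3589), of a Rac-like GTPase. The remaining pairs of the 20 strongest join genes known by CG numbers: CG13901/CG13887 (4074), CG9117/CG31643 (3859), CG12341/CG7222 (3759), CG11309/CG7632 (3577) and CG13390/CG17294 (3462).

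All 20 ranked no worse than 74 in replicate 3 and 71 in replicate 4, and their replicate summits lay at most 36 bp apart. The summit lay between the TSSs in 17 of the 20, and the spacing ran from 33 to 495 bp. For Zaf1, CG13901, imd, CG5986, CG7222 and ball the TSS of the pair was not the outermost of its gene. None of the 20 is on X, the arm that holds 14.2% of members.

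**Figure D4:**
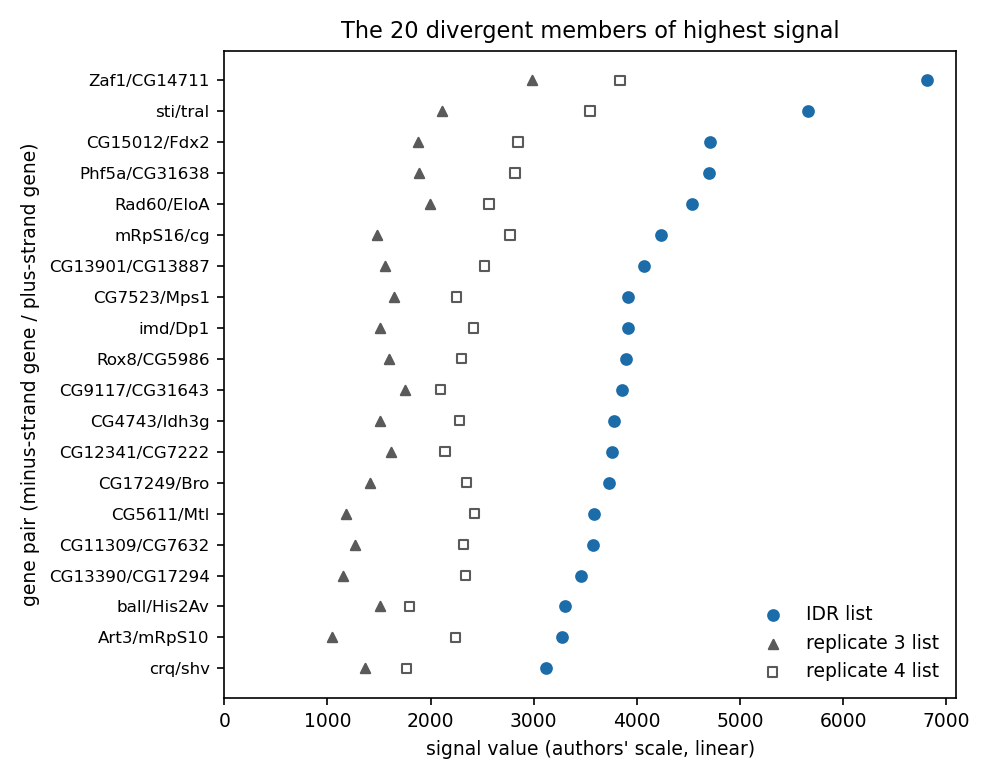
The 20 divergent members of highest signal, named by the minus-strand and the plus-strand gene of the pair, with the signal value in the reproducible (IDR) list (blue circles), the replicate 3 list (grey triangles) and the replicate 4 list (open squares) on a linear axis. Scales differ between lists; Zaf1/CG14711 is highest in all 3 (6809, 2987 and 3835).

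At the other end, the 5 weakest members had signals between 146.5 and 147.2, near the lower limit of the list (146.3): S/ast (147.2), of the EGF pathway gene Star, Bx42/Arfrp1 (146.8), Nnf1a/HnRNP-K (146.7), of a kinetochore gene, CG12182/CG16985 (146.6) and Eno/Rrp40 (146.5), of enolase and an exosome subunit. Their replicate ranks ran from 3935 to 17276 in replicate 3 and from 3746 to 6734 in replicate 4. Among members matched in both replicate lists, the ratio of the replicate 3 rank to the replicate 4 rank was most extreme at 6 members, 3 in each direction. CG31548/CG12170 ranked 26731 in replicate 3 and 1781 in replicate 4, with signals of 16.5 and 254. CG18659/Hydr1 ranked 22547 and 2547, and Ppat-Dpck/scny, of a coenzyme A synthesis enzyme and a ubiquitin protease, 15583 and 1797. In the other direction Pgk/Bacc ranked 605 in replicate 3 and 6367 in replicate 4, with signals of 305 and 85.9. RpL41/NaCP60E, with a sodium channel gene, ranked 1771 and 12294, and Panx/CG9485, with a gene of the piRNA pathway, 2966 and 19715.

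The limit of 500 bp itself cut through a continuum. The members nearest to it on the inside were Spn27A/CG34310 (signal 316), of a serpin, Mst36Fa/CG31751 (229) and Spase22-23/mask (218), all with the farther TSS 500 bp from the summit. The one-strand peaks nearest to it on the outside were at HSPC300 (251), 502 bp from CG3163, and at Ppox (156), 502 bp from the potassium channel gene slo.

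Some pairs held more than 1 member. This was so at 102 of the 1169 pairs (8.73%, 95% interval 7.24 to 10.5), 99 with 2 members and 3 with 3. The outer summits of such a pair lay a median of 203 bp apart. No 2 summits of the whole list were closer than 199 bp, so nearer summits are not listed apart. A peak interval listed with more than 1 summit occurred in 104 members (8.16%, 95% interval 6.78 to 9.80) and in 104 one-strand peaks (4.68%, 3.88 to 5.64). By summed signal the leading pairs were imd/Dp1, with 3911 and 232 at summits 1866 bp apart, Ype/CG1662, with 2716 and 1108 at summits 214 bp apart, and ball/His2Av, with 3305 and 278 at summits 201 bp apart. The nearest TSSs differed between the 2 summits in all 3 pairs: for both genes at imd/Dp1, for CG1662 at Ype/CG1662 and for ball at ball/His2Av. At Ype/CG1662 both summits had ranks of 560 or better in both replicates. The weaker ball/His2Av summit was in the replicate 4 list only, at rank 1703.

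Gene groups differed in how many of their genes start in a head-to-head pair and in how many of those had a member. Over all protein-coding genes, 4934 of 13945 (35.4%) are in an annotated pair, 47.0% of these shared a summit with their partner, and 2327 (16.7%) belonged to the nearest pair of a member. Symbols defined the lists, which were described by counts only.

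Genes of the mitochondrial ribosome were mostly in pairs, 58 of 73, and 65.5% of those in pairs shared a summit, while 3 of the 15 outside pairs had one. The strongest after mRpS16 and mRpS10 were mRpS23 (2618, with CenG1A), mRpL23 (2370, with CG9004) and mRpL52 (2156, with CG12107). Of 85 genes of the cytoplasmic ribosome, 52 are in pairs and 57.7% of those shared a summit, while 29 of the 33 outside pairs (87.9%) had one. These shares follow different rules, since a shared summit must lie within 500 bp of both TSSs. A summit within 500 bp of any own TSS was present at 76 of the 85 cytoplasmic (89.4%) and 43 of the 73 mitochondrial genes (58.9%). The strongest divergent member of the cytoplasmic list was RpL13/Dref (signal 3119, ranks 40 in replicate 3 and 73 in replicate 4). Its partner Dref encodes the factor that binds the DNA replication-related element. RpS25 (2077, with CG4820), RpS27 (1950, with Nup37) and RpS14a (1586, with Dhdds) followed.

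Aminoacyl-tRNA synthetase genes had members at 17 of 33 genes, and 73.9% of the 23 in pairs shared a summit, against 2 of the 10 outside pairs. TrpRS (2770), SerRS (1061) and ValRS (1021) had the highest signals. Proteasome genes had members at 18 of 48, and 69.2% of the 26 in pairs shared a summit, led by the ATPase gene Rpt3 (1038) and the lid gene Rpn5 (853). Oxidative phosphorylation genes had members at 25 of 88, and 61.4% of the 44 in pairs shared a summit, led by the complex I genes ND-30 (1303) and ND-42 (1267). The Mediator list had members at 11 of 25 genes, and 61.1% of the 18 in pairs shared a summit, led by MED28 (2119). The list of RNA polymerase II and general factors had members at 14 of 37, led by Taf2 (1919), and 56.0% of the 25 in pairs shared a summit. Vps trafficking genes had members at 11 of 27, led by Vps16A (2770), and 61.1% of the 18 in pairs shared a summit. Over all protein-coding genes, 16.7% had a member and 47.0% of those in pairs shared a summit. These lists are small.

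Nuclear pore genes in pairs had the lowest share with a shared summit among the housekeeping lists. Over all protein-coding genes in pairs that share was 47.0%. With so few nuclear pore genes, a difference from it is not shown. Of 21 genes 18 are in pairs, but 6 of these (33.3%) shared a summit: those of Nup37, Nup133 (587), Nup160 (506), Nup98-96 (348), Nup93-2 (303) and Nup50 (207). Families of restricted expression had fewer genes in pairs. Of 85 cytochrome P450 genes 13 are in pairs and 2 had a member, Cyp9f2 (349, with CG5167) and Cyp6a22 (171, with Pcf11). Of the 72 P450 genes outside pairs 12 had a summit (16.7%), close to the 17.6% of all genes outside pairs. Of 179 chemoreceptor genes 26 are in pairs and 2 had a member, Gr63a (246, with Lamtor4) and Ir60e (196, with CG13585). None of the 152 chemoreceptor genes outside pairs had a summit.

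In 4 members both genes of the pair belong to these lists. TrpRS/Vps16A joins a tRNA synthetase and a subunit of the vesicle-tethering HOPS complex and had a signal of 2770, with ranks of 53 in replicate 3 and 97 in replicate 4. RpS27/Nup37 joins a ribosomal and a nuclear pore protein and held 2 members, of 1950 and 576. mRpL39/Prosbeta2 joins a mitochondrial ribosomal protein and a proteasome subunit and had a signal of 477, with ranks of 1150 and 1425.

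The share of members on X was below that of one-strand peaks. There 181 of the 1274 members lay (14.2%, 95% interval 12.4 to 16.2), against 455 of 2222 one-strand peaks (20.5%, 18.9 to 22.2), while X holds 15.4% of annotated pairs and 15.9% of the genes outside pairs. Of the pairs on X, 41.4% had a summit (95% interval 36.6 to 46.3), and of the genes outside pairs on X 21.4% (19.3 to 23.6). On 2L, 2R, 3L and 3R these shares ran from 44.7% to 51.7% of pairs and from 15.5% to 17.4% of genes outside pairs. Chromosome 4 has 11 annotated pairs, of which 3 had a summit. On X the median signal was 283 for members and 255 for one-strand peaks, and with X left out the ratio of medians was 1.35.

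Sequence around member summits was poor in G and C. In 101-bp windows centred on the summit the median GC content was 30.7% at members (interquartile range 24.8 to 40.6) and 36.6% at one-strand peaks (27.7 to 44.6). At 300 bp to either side it was 46.5% at members and 42.6% at one-strand peaks, so the contrast between centre and flank was larger at members. The farther TSS of a member lay a median of 187 bp from the summit, so these flanks often lie beyond both TSSs of the pair. The part of this geometry in the contrast was not tested. The midpoints of 715 annotated pairs without a summit within 1000 bp had a median of 35.6%, and windows at the outermost TSS of all protein-coding genes 43.6%. Among members the median was 37.6% at a spacing of 0 to 199 bp, 28.7% at 200 to 349 bp and 29.7% at 350 bp and over. It was 29.7% in the fifth of members with the highest signal and 36.6% in the fifth with the lowest. ChIP-seq coverage can vary with base composition, and its part in the signal was not tested.

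**Figure D5:**
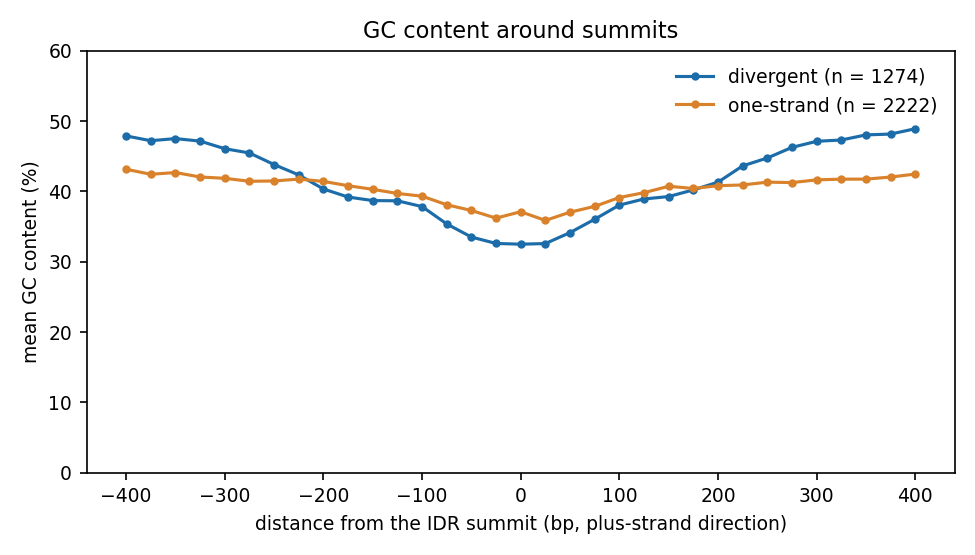
Mean GC content by distance from the summit, in the plus-strand direction, at divergent (blue, 1274) and one-strand (orange, 2222) peaks. Both dip at the summit; members lie lower there and higher than one-strand peaks beyond about 250 bp.

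Exact matches to 9 short motifs were counted within 50 bp of the summit, on both strands. The intervals for members and one-strand peaks were separate for 3 of them. CGATA, the core bound by BEAF-32, occurred in 27.4% of members (95% interval 25.0 to 29.9), against 22.0% of one-strand peaks (20.3 to 23.7), with 25.8% at the outermost TSS of all protein-coding genes and 28.4% at the midpoints of the 715 pairs without a summit (25.2 to 31.8), an interval that overlaps that of members. TATAAA, the TATA box, occurred in 24.8% of members (22.5 to 27.2), against 18.8% of one-strand peaks (17.2 to 20.4), with 17.0% at all TSSs and 19.2% at pairs without a summit. GAGAG, bound by GAGA factor, occurred in 6.99% of members (5.71 to 8.52), against 10.6% of one-strand peaks (9.36 to 11.9), with 11.5% at all TSSs and 11.3% at pairs without a summit. Base composition of the windows differs as given above, and these shares were not adjusted for it.

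For the other 6 motifs the intervals overlap. TATCGATA, the DNA replication-related element, which contains CGATA, occurred in 5.02% of members and 3.60% of one-strand peaks, with 5.56% at all TSSs. GGTCACAC, bound by M1BP, occurred in 2.90% and 2.88%, with 5.59% at all TSSs, and CATCNCTA in 3.14% and 3.20%, with 3.96% at all TSSs. The E-box CAGCTG occurred in 6.12% and 5.54%, with 9.34% at all TSSs, and CAGGTA, bound by Zelda, in 2.12% and 1.71%, with 1.97% at all TSSs. CAACCCTG, a word found earlier on these same peaks and so no independent observation, occurred in 2.90% of members and 3.06% of one-strand peaks, with 0.724% at all TSSs and 0.140% at the midpoints of pairs without a summit.

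Motif shares varied among members with spacing and with signal. CGATA occurred in 39.5% of members at a spacing of 0 to 199 bp (95% interval 34.5 to 44.8), 23.2% at 200 to 349 bp (19.8 to 27.0) and 22.1% at 350 bp and over (18.2 to 26.6). CAGCTG occurred in 13.3%, 3.02% and 4.27% in the same order, and TATAAA in 15.3%, 30.2% and 25.9%. By signal, CGATA occurred in 22.0% of the fifth of members with the highest signal (17.3 to 27.4), against 36.1% of the fifth with the lowest (30.4 to 42.1).

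CAACCCTG lay within 50 bp of the summit in 29 of the 255 members of the fifth with the highest signal (11.4%, 95% interval 8.04 to 15.9), against 0 of 255 in the fifth with the lowest, which allows a share of up to 1.48%. In one-strand peaks it lay in 43 of 445 (9.66%), against 2 of 445 (0.449%). The 37 members with the word had a median signal of 1131 (95% interval 873 to 1339), against 311 (299 to 328) for members without it. Their median rank was 365 in replicate 3 and 496 in replicate 4, against 2302 and 2125 without it. The word was found earlier on these same peaks, so its relation to signal and rank is no independent observation. The shorter CAACCC, chosen after the printed sequences were seen, occurred in 6.36% of members and 6.44% of one-strand peaks, with 3.00% at all TSSs. It lay within 50 bp of the summit in 9 of the 20 strongest members, and CAACCCTG in 4 of them. Some of these 20 are among the printed sequences from which CAACCC was chosen, so this count is no independent observation.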

How the data were processed

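ChIP-seq peaks of CG14711-eGFP from whole adult female flies were used as deposited, in 4 narrowPeak lists on dm6: 1 for each of replicates 3 and 4, 1 for both pooled (30000 peaks each) and the optimal list after the irreproducible discovery rate (IDR, 5654 peaks). Per the labels, chromatin was sheared by sonication to 200 to 800 bp. The deposited text records state that lists were called against a control alignment, which was not analysed here. Names of the aligner and the caller, as well as the IDR cut-off, are not stated in the labels or records used. Each peak's signal value and summit offset are the authors' own and were used only within a list. The depth is unknown. All 5654 IDR peaks are rows of the pooled list.

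TSSs came from Ensembl release 115 (BDGP6.54, the coordinates of dm6), without transposable elements: 13945 protein-coding genes with 19607 TSS positions. Summits of different lists were matched within 100 bp. Annotated pairs were the closest minus-strand and plus-strand TSSs of neighbouring genes, 0 to 1000 bp apart. Python 3.11.15, pandas 2.3.3, NumPy 2.4.6, SciPy 1.17.1 and matplotlib 3.10.9 were used, and classification and matching were tested on simulated data.

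The members, the gene and motif lists and the tests were chosen with earlier results of these data known. The named pairs follow a rule: the 20 members of highest signal; the 3 narrowest, the 3 widest and the 3 longest overlaps; members with both genes in the lists; the 3 pairs with several members and the highest summed signal; the 3 most extreme ratios of replicate 3 to replicate 4 rank each way; the 3 peaks nearest to 500 bp on each side; and the 5 weakest. One peak that this rule names is not reported here. Leading genes of each list are those of highest signal, and the sequences printed are among those of highest signal of their kind. Alternatives changed the window (250 or 1000 bp), the TSS set, the pairing rule, the IDR list (peaks above its median signal, or the best peaks of a single replicate), the matching and the motif window.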

Additional observations from a re-analysis of the deposited data

How the results depend on the processing

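Of 79 alternative values of the main results, 49 stayed within the interval or 1.5 times of the value reported, 30 moved and 0 reversed. Of 81 single motif shares 15 moved. Some of the values that stayed could not move, so these counts overstate the stability. Leaving out one-strand peaks with a noncoding TSS opposite cannot change a result on members alone. Taking the closest pair of TSSs changes the geometry of a pair, but not the number of members, their signal or their motif shares. With a window of 250 bp the median spacing was 235 bp, the signal ratio 1.39, the share of pairs with a summit 34.1% and the share of members among the best of both replicates 76.4%. With 1000 bp the spacing was 309 bp, the ratio 1.22, the pair share 55.5% and the share of summits between the TSSs 78.4%. With the outermost TSS only, the head-to-head share was 95.5%, the spacing 265 bp, the between share 77.3% and the motifs with separate intervals 1. With the closest pair of TSSs the spacing was 263 bp and the between share 75.7%. Above the median signal of the list there were 785 members, with a ratio of 1.13, a pair share of 29.8%, a between share of 84.1%, a best-of-both share of 92.9%, replicate summits 21 bp apart and 1 separate motif. Any pooled summit gave 71.4% of pairs, matching by 1 bp of overlap 79.7% in the best of both, summits within 150 bp of a TSS a ratio of 1.41, and motifs within 100 bp 5 separate intervals.

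With the list rebuilt without replicate 3 or without replicate 4, the ranges were 1136 to 1336 members, 97.4% to 98.1% head-to-head, 265 to 283 bp spacing, 75.0% to 82.5% between, ratios of 1.27 to 1.29, 68.3% to 79.8% in the best of both, 41.7% to 48.4% of pairs, 25 to 27 bp between replicate summits and 3 to 4 separate motifs. The causes were not tested. No paired analysis was possible because there is 1 group. Depth is unknown, so a pair without a listed summit is not shown to be unbound.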
